A study of Mus musculus with 6 samples.

Results

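The genes of oxidative phosphorylation (OXPHOS) were examined in cultured muscle satellite cells (MuSCs), the stem cells of skeletal muscle, from wild type and *Piezo1* cKO mice. The members were the rows of the count table whose symbols name a subunit of complexes I to V or cytochrome c, by the patterns Nduf, Sdh, Uqcr, Cyc1, Cycs, Cox and Atp5, without the symbols that carry the mark of a pseudogene (-ps). The rule used names only and no measured value. It selected 87 of the 20654 genes listed, of which 39 belong to complex I, 4 to complex II, 9 to complex III, 17 to complex IV and 17 to complex V, and 1 is cytochrome c. All 87 are nuclear genes. The 83 found in the annotation lie on 19 chromosomes, and 4 of them are annotated as processed pseudogenes although their symbols lack the -ps mark. The rule also covers the subunits encoded in mitochondrial DNA, but 0 genes with a mitochondrial symbol are listed in the table used here, and these genes were not analysed here.

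The data were RNA-seq counts of 6 libraries, 3 from wild type and 3 from *Piezo1* cKO mice on the C57BL/6 background. The cKO mice were *Piezo1*flox/flox; *Pax7*CreERT2/+, with a Cre driver that is expressed from the *Pax7* locus and activated by tamoxifen, and were injected with tamoxifen to induce the deletion. The labels call the controls wild type, whereas the study's text names *Pax7*CreERT2/+ mice, which carry the Cre driver, as the controls of the MuSC comparison. The study's methods describe the injections without naming the group. MuSCs were sorted as VCAM1+, Sca1-, CD31-, CD45- cells and cultured for 3 d in growth medium on Matrigel, with 4-OH tamoxifen in the medium of both groups. The age of the mice of these libraries was not given in the sources used here. *Piezo1*, a mechanosensitive cation channel, had 11, 5 and 6 counts in wild type 1 to 3 and 7, 12 and 9 counts in *Piezo1* cKO 1 to 3. The ratio of the pooled rates was 1.42 (95% interval 0.781 to 2.60, counting error only), and the groups overlapped (exact permutation test, two-sided, p = 0.5). At these low counts the targeted gene was not lower in the second group, but the interval also includes lower rates. The counts therefore cannot decide on the label, and *Piezo1* cKO below names the libraries that carry it. Where in the gene the reads lie relative to the floxed exons is not shown by a count per gene. The study's text reports calcium influx on a PIEZO1 agonist in control but not in *Piezo1* cKO MuSCs. It takes this to show that the deletion was effective in these cells. It also reports muscle differentiation as a signature raised in *Piezo1* cKO by RNA-seq. Differentiating myocyte markers, given below, were read from the same libraries and are no separate evidence. Their summed counts were higher in the libraries labelled *Piezo1* cKO, but edgeR called only 1 of the 9 tested. The legend of the study's RNA-seq figure marks RT-qPCR of *Piezo1* in both groups as significant, without naming a direction. Another legend lists RT-qPCR of *Piezo1* in both groups after 3 d in growth medium.

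Oxidative phosphorylation takes place in the inner mitochondrial membrane. Complexes I and II pass electrons from NADH and succinate to ubiquinone, complex III passes them on to cytochrome c, and complex IV passes them to oxygen. Complexes I, III and IV pump protons across the membrane, and complex V, the ATP synthase, makes ATP from the return flow. Muscle is known for a high content of these complexes and for isoforms of some complex IV subunits, *Cox6a2*, *Cox7a1* and *Cox8b*, that are made in heart and skeletal muscle in place of the forms found in most tissues. In MuSCs the use of oxidative phosphorylation is known to change as the cells leave quiescence, proliferate and differentiate.

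Sequence features that the rule did not use were read from RefSeq promoter windows (GRCm38.p6), which run from 250 bases before to 50 bases after each gene start and hold 69 of the 87 members. The core GCATGCGC of the motif of NRF1, a transcription factor known for nuclear genes of the respiratory chain, was found on either strand in 11 of the 69 members (15.9%), against 3.05% of all 27025 genes in the promoter table. A motif of 10 letters of YY1, which stands in capitals in the second set of stretches, was found in 5 members (7.25%) against 0.995%, and TCAAGGTCA of the ERR receptors in 2 members (2.90%) against 0.466%. The shares were closer for CCGGAAGT of ETS factors such as GABPA (7.25% against 4.31%) and for the GC box GGGCGG (40.6% against 38.2%). They were lower in the members for the E box CAGCTG bound by MyoD and other factors (8.70% against 18.3%) and for the MEF2 motif (1.45% against 4.23%). The median GC content of the windows was 58.0% in the members and 52.7% in all genes, and the promoters were not matched for it. These matches are descriptions of letters in a window and not of binding. The stretches of 30 bases around the NRF1 core in the 11 members are printed here, each read on the strand of the gene. Most of the 69 members do not hold this core. The 11 include only *Sdhb* from complex II and only *Cox6a1* from complex IV. Capitals mark the core or its reverse complement GCGCATGC.
*Atp5g2* (chr15:102671071-102671100, - strand): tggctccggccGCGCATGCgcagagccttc
*Atp5k* (chr5:108434431-108434460, - strand): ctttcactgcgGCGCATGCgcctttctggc
*Atp5l* (chr9:44920963-44920992, - strand): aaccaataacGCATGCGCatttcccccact
*Cox6a1* (chr5:115349102-115349131, - strand): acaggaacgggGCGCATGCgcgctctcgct
*Cycs* (chr6:50566611-50566640, - strand): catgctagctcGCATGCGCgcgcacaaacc
*Ndufa11* (chr17:56717691-56717720, + strand): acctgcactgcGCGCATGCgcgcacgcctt
*Ndufa6* (chr15:82354356-82354385, - strand): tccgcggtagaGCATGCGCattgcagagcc
*Ndufa8* (chr2:36049328-36049357, - strand): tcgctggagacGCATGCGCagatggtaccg
*Sdhb* (chr4:140961206-140961235, + strand): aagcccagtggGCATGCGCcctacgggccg
*Uqcr11* (chr10:80406807-80406836, - strand): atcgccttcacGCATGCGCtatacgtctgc
*Uqcrc1* (chr9:108936667-108936696, + strand): gactccgctctGCGCATGCgcagcgcggct

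The 5 stretches with the YY1 motif, in capitals, belong to 4 genes of complex I and 1 of complex V.
*Atp5j* (chr16:84835045-84835074, - strand): aagtgtaggaAAGATGGCGGagtcttagct
*Ndufa9* (chr6:126849096-126849125, - strand): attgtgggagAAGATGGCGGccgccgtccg
*Ndufs4* (chr13:114388045-114388074, - strand): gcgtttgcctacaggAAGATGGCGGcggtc
*Ndufs6* (chr13:73328433-73328462, - strand): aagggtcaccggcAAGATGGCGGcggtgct
*Ndufs7* (chr10:80249463-80249492, + strand): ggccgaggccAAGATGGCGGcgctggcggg

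The 11 tested members with the NRF1 core had a median log2 fold change of 0.041 (*Piezo1* cKO against wild type), and the 5 with the YY1 motif one of 0.042. Both were close to 0, as was the median of all 82 members tested, 0.021.

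The libraries held from 726378 to 931168 unique molecular identifier (UMI) counts, so that a gene at a floor of 3 counts stood at 3.22 to 4.13 CPM, the counts scaled to a total of 1e6. The members took 3.47%, 2.96% and 3.54% of the counts of wild type 1 to 3, and 3.29%, 3.40% and 3.56% of those of *Piezo1* cKO 1 to 3. Wild type 2 was the lowest of all, and the groups overlapped. On CPM scaled by TMM, used for all levels below, the members summed to 36999, 30695 and 37290 CPM in wild type and to 33819, 32647 and 36322 CPM in *Piezo1* cKO. The group means were 34994 ± 3727 and 34263 ± 1877 CPM (SD, n = 3 each), a ratio of 0.979. Since RNA was taken from bulk cultures, fewer cells of a type and less RNA per cell cannot be told apart in these levels.

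The order of the libraries differed in part between the large complexes. The lowest of the 6 was wild type 2 in complexes I and IV and *Piezo1* cKO 2 in complex V. Complex I summed to 9949, 8564 and 10436 CPM in wild type and to 9590, 9892 and 10158 CPM in *Piezo1* cKO. Complex IV summed to 8065, 6034 and 8157 CPM in wild type and to 7084, 6981 and 8071 CPM in *Piezo1* cKO. Complex V summed to 12053, 10228 and 11615 CPM in wild type and to 10676, 9837 and 11471 CPM in *Piezo1* cKO. In each of these complexes the lowest wild type library was the second, and the groups overlapped. The ratios of the group means were 1.02 for complex I, 0.949 for complex II, 0.965 for complex III, 0.914 for cytochrome c, 0.995 for complex IV and 0.944 for complex V.

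**Figure D1:**
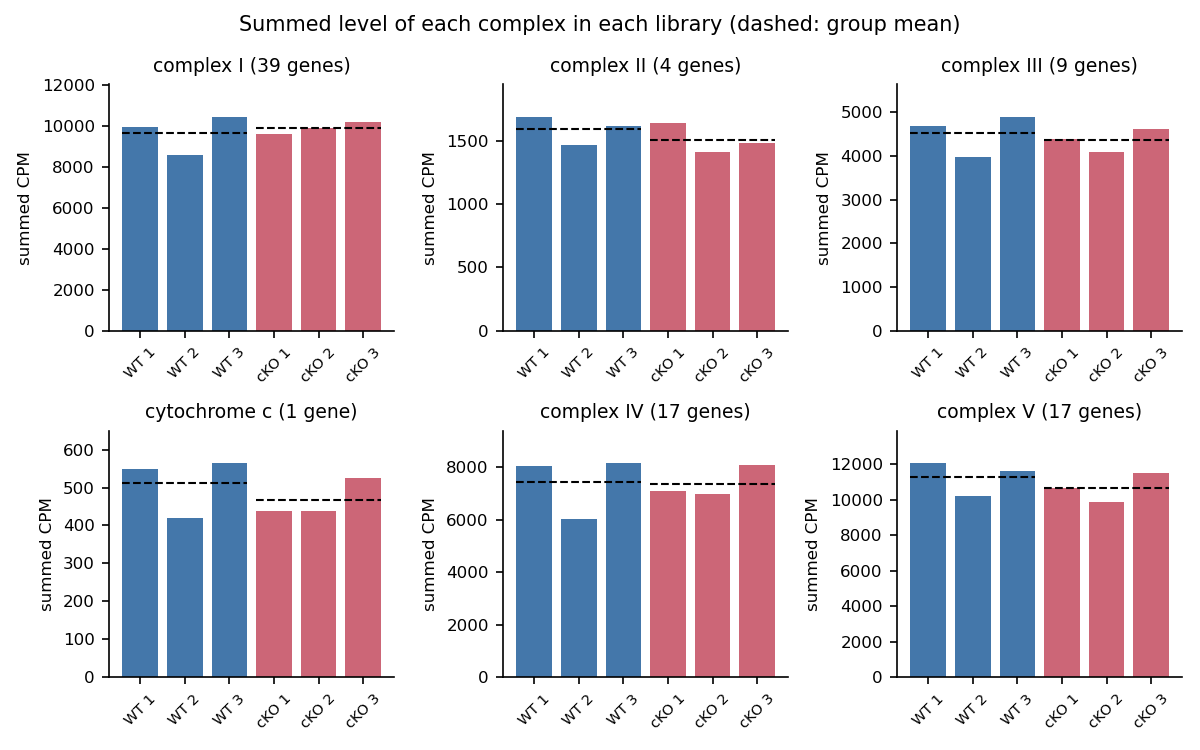
Bars show the summed CPM (TMM-scaled, vertical axis from 0) of the members of each complex in each of the 6 libraries, and dashed lines the group means. Wild type 2 (WT 2) is the lowest wild type bar in all panels, for example 6034 CPM for complex IV, and the groups overlap in each panel.

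The difference between the group means of the summed level was smaller than the SD within either group. The second wild type library held the lowest value of the 6 for 50 of the 82 members tested (61.0%), whereas it was the lowest for 20.7% of all genes tested. Its median deviation from each gene's own mean was -0.21 on the log2(CPM + 1) scale, against 0.08 in wild type 1 and 0.11 in wild type 3. In *Piezo1* cKO the median deviations were -0.06, 0.01 and 0.08. *Piezo1* cKO 2 was the lowest of the 6 for 17 members (20.7%) and for 20.8% of all genes tested. Its deviations went with the level of the gene, with the more abundant members lower (r = -0.702 across 82 genes of the same library, which are not independent). In wild type 2 the deviations went the other way with level, with the more abundant members less low (r = 0.467 across the same genes).

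**Figure D2:**
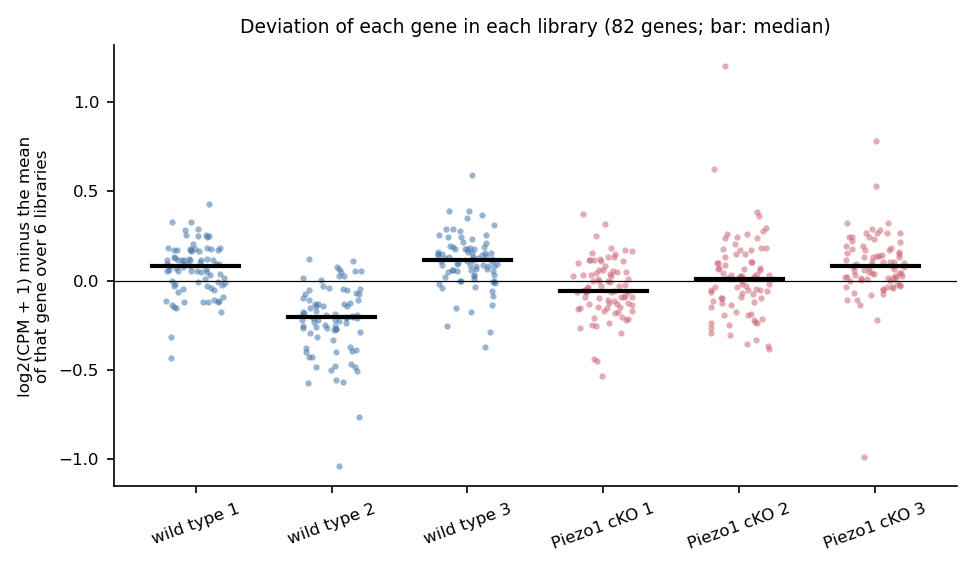
Each point is 1 of 82 members in 1 library, as log2(CPM + 1) minus the mean of that gene over the 6 libraries, and black bars are medians. The median of wild type 2 lies at -0.21, below those of the other 5 libraries, which lie between -0.06 and 0.11.

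The question of the comparison was which genes differ between the MuSC libraries labelled wild type and *Piezo1* cKO. Of the 8551 genes tested by edgeR, 67 (0.784%) were called at an adjusted p under 0.05, of which 40 (0.468%) stood higher in the libraries labelled *Piezo1* cKO and 27 (0.316%) stood lower. The split was 12 higher and 15 lower with DESeq2, 17 and 15 after cyclic loess, and 49 and 18 with total counts alone. The legend of the study's RNA-seq figure, also from DESeq2, counts 12 genes as down-regulated and 15 as up-regulated. This is the opposite of the DESeq2 split found here. That legend does not name the reference group of these counts, and the source of the difference was not tested. None of the 82 members tested was called (0 of 82), in either direction. DESeq2, limma-voom and limma after cyclic loess normalisation also called 0 members, and called 0.674%, 0.842% and 0.374% of the genes to which they gave an adjusted p. The number of genes called by edgeR was 6 when *Piezo1* cKO 2 was left out, 29 when *Piezo1* cKO 3 was, and 174 when *Piezo1* cKO 1 was. It was 105 without wild type 1 and 131 without wild type 3. An unadjusted edgeR p under 0.05 was reached by 4 members, against 11.9% of all genes tested. It was reached by 1 member in DESeq2, 4 in limma-voom and 11 after cyclic loess, against 2.99%, 11.8% and 10.6% of all genes in these fits. The median log2 fold change was 0.021 over the members, of which 44 were above and 38 below 0, and 0.002 over all genes tested. A p above the threshold does not show that levels were equal, but the intervals limit the size of a change. The 95% interval of the fold change lay within 1.5-fold in both directions for 73 of the 82 members (89.0%), against 43.2% of all genes tested. The members were more abundant than most genes, with 57 of the 82 at 250 CPM or more, against 888 of the 8551 genes tested. The groups did not overlap in 9 members (11.0%; 4 higher, 5 lower), whereas they did not overlap in 16.5% of all genes tested (8.2% higher, 8.31% lower). At 250 CPM or more they did not overlap in 8.77% of the 57 members (1 higher, 4 lower). Of the 888 genes at this level, 27.1% did not overlap (10 higher, 231 lower). The intervals lay within 1.5-fold for 98.2% of these members and 84.6% of these genes.

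**Figure D3:**
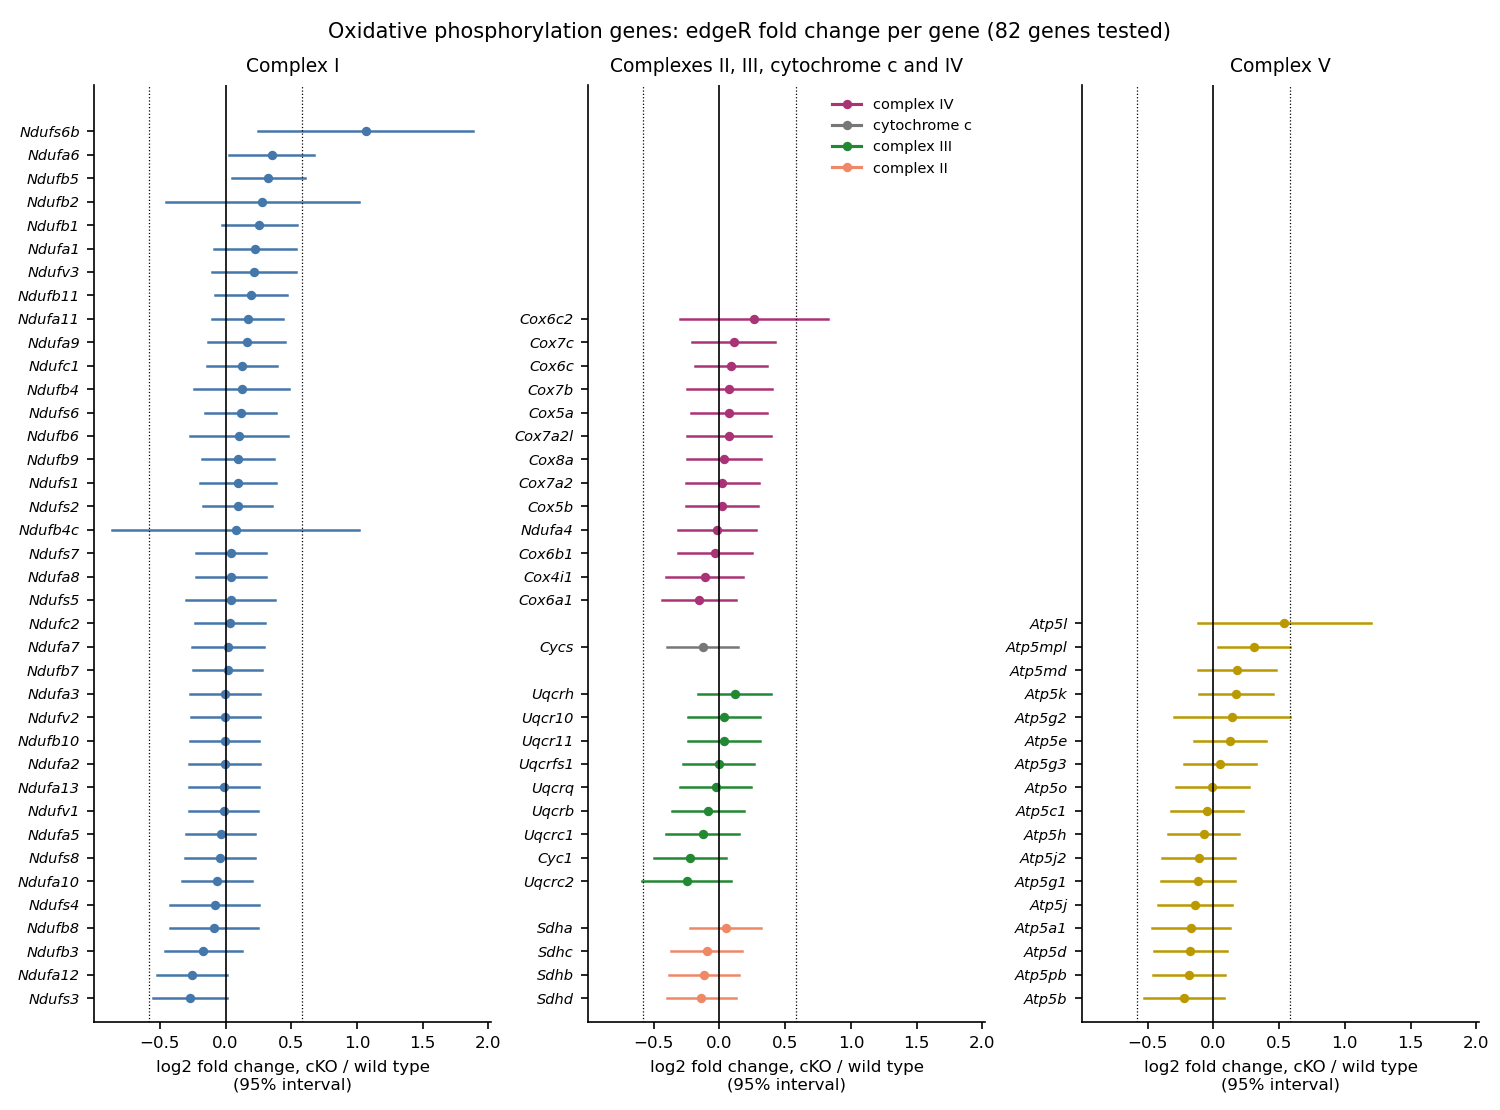
Points show the edgeR log2 fold change of each of the 82 members tested (*Piezo1* cKO over wild type), with 95% intervals as lines, by complex. Dotted lines mark a change of 1.5-fold in either direction, and 73 of the 82 intervals stay between them.

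Complex I, the NADH dehydrogenase, has 7 nuclear core subunits of the matrix arm among the members, which hold the flavin and the iron-sulfur clusters. Their median log2 fold change was -0.003, from -0.27 for *Ndufs3* to 0.09 for *Ndufs1*. *Ndufs3* had 163, 184 and 177 counts in wild type and 145, 126 and 140 counts in *Piezo1* cKO. The groups did not overlap on the CPM scale (216 ± 15.9 against 179 ± 10.6 CPM, SD, n = 3 each), and the edgeR estimate was -0.27 ± 0.14 (SE, adjusted p = 0.434). *Ndufv1*, which carries the flavin site where NADH is oxidised, stood at 366 ± 22.1 and 362 ± 29.6 CPM (SD, n = 3 each).

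The 31 accessory genes of complex I tested, which surround this core, had a median of 0.079, with 21 above and 10 below 0. They include the processed pseudogenes *Ndufs6b* and *Ndufb4c*, and the median of the other 29 genes was 0.041. An unadjusted p under 0.05 was reached by 3 of the 31, all higher, a lower share than the 11.9% of all genes tested. Without the pseudogenes it was reached by 2 of 29. *Ndufb5* had 127, 151 and 160 counts in wild type and 168, 160 and 190 counts in *Piezo1* cKO. The groups did not overlap on the CPM scale, with a log2 fold change of 0.32 ± 0.14 (SE, edgeR adjusted p = 0.318). *Ndufa6* had 84, 91 and 156 counts in wild type and 135, 137 and 126 counts in *Piezo1* cKO. Wild type 3 exceeded all of the other group in counts, and the log2 fold change was 0.35 ± 0.16 (SE, edgeR adjusted p = 0.369), or 0.17 without wild type 2. *Ndufs6b*, annotated as a processed pseudogene of *Ndufs6*, had 8, 5 and 8 counts in wild type and 13, 15 and 14 counts in *Piezo1* cKO, without overlap. Its log2 fold change of 1.07 ± 0.41 (SE, edgeR adjusted p = 0.237) was the largest of the members tested. *Ndufs6* itself, with 219, 246 and 288 counts in wild type and 255, 231 and 285 in *Piezo1* cKO, had an estimate of 0.12 ± 0.13 (SE). How reads were divided between the copies is not given in the sources used here, so the value of *Ndufs6b* is uncertain.

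*Ndufa12* was the lowest accessory gene, with 351, 412 and 436 counts in wild type and 313, 298 and 339 counts in *Piezo1* cKO. Its groups did not overlap (493 ± 29.4 against 413 ± 31.2 CPM, SD, n = 3 each), with a log2 fold change of -0.25 ± 0.13 (SE, edgeR adjusted p = 0.442), or -0.12 after cyclic loess. *Ndufb2*, chosen here after its values were seen, shows how far 1 library can decide a value. It had 48, 49 and 120 counts in wild type and 83, 80 and 85 counts in *Piezo1* cKO. Wild type 3 was above and the other wild type libraries were below every library labelled *Piezo1* cKO. With all libraries the log2 fold change was 0.28 ± 0.32 (SE, edgeR adjusted p = 0.819). Without wild type 3, edgeR called *Ndufb2* (0.81, adjusted p = 0.0231) and *Ndufa6* (0.65, adjusted p = 0.0331), in a fit that called 1.48% of all genes. Without wild type 2 the estimate of *Ndufb2* was 0.01 (adjusted p = 0.994). No other member was called when any of the 6 libraries was left out in turn.

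Complex II, succinate dehydrogenase, links the citric acid cycle to the chain and is made of 4 nuclear subunits. The catalytic subunit *Sdha* stood at 422 ± 40.5 CPM in wild type and 435 ± 71.3 CPM in *Piezo1* cKO. Its iron-sulfur partner *Sdhb* stood at 446 ± 64.8 and 410 ± 46.1 CPM. The membrane anchor *Sdhc* stood at 286 ± 25.4 and 267 ± 27.2 CPM (SD, n = 3 each). The other anchor, *Sdhd*, stood at 493, 405 and 409 CPM in wild type and at 387, 399 and 400.2 CPM in *Piezo1* cKO. *Sdhd* had 343, 363 and 346 counts in wild type and 305, 302 and 302 counts in *Piezo1* cKO. The groups did not overlap, and the estimate was -0.14 ± 0.13 (SE, edgeR adjusted p = 0.743), or -0.01 after cyclic loess. The log2 fold changes of the 4 genes ran from -0.14 to 0.05.

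Complex III, the cytochrome bc1 complex, had 9 members with a median of -0.030, and the groups overlapped in all 9. *Cyc1*, which encodes cytochrome c1, had 562, 663 and 651 counts in wild type and 586, 436 and 498 counts in *Piezo1* cKO. The first library labelled *Piezo1* cKO lay among the wild type values, and the log2 fold change was -0.23 ± 0.14 (SE, edgeR adjusted p = 0.534). *Uqcrc2*, a core protein, had the lowest estimate of the complex (-0.25 ± 0.17, SE), with 76, 98 and 104 counts in wild type and 60, 89 and 71 counts in *Piezo1* cKO. With other fits or 1 library left out, the estimate of *Uqcrc2* ran from -0.42 to -0.11. *Uqcrh*, the hinge protein, had the highest estimate of the complex (0.11 ± 0.14, SE). The Rieske iron-sulfur protein gene *Uqcrfs1* stood at 250 ± 19.8 and 249 ± 5.94 CPM (SD, n = 3 each). *Cycs*, the soluble carrier between complexes III and IV, had 382, 377 and 478 counts in wild type and 346, 332 and 396 counts in *Piezo1* cKO, with a log2 fold change of -0.13 ± 0.14 (SE, edgeR adjusted p = 0.780). After cyclic loess the estimates were -0.05 for *Cyc1* and 0.02 for *Cycs*.

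Complex IV, cytochrome c oxidase, has 17 nuclear members here, of which 13 were tested, with a median of 0.036 and groups that overlapped in all 13. *Cox4i1*, which encodes the regulatory subunit 4, had 869, 779 and 991 counts in wild type and 739, 740 and 847 counts in *Piezo1* cKO. The estimate was -0.11 ± 0.15 (SE, edgeR adjusted p = 0.836), or 0.12 after cyclic loess. *Cox4i1* lies on chromosome 8 (chr8:120668222-120674207, GRCm38), 1807491 bases from *Piezo1*. The extremes of the complex were *Cox6a1* (-0.16 ± 0.14, SE) and *Cox6c2* (0.26 ± 0.28, SE), the latter annotated as a processed pseudogene with 17 to 25 counts per library. *Ndufa4*, once counted with complex I and now known as a subunit of complex IV, stood at 802 ± 189 and 791 ± 108 CPM. *Cox7a2l*, a factor for the assembly of supercomplexes, stood at 116 ± 8.03 and 122 ± 21.3 CPM, and *Cox6b1* at 918 ± 109 and 896 ± 111 CPM (SD, n = 3 each).

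The muscle isoforms of complex IV had 0 to 11 counts per library, and none passed the filter on low counts. *Cox6a2* had 0, 1 and 0 counts in wild type and 0, 2 and 0 counts in *Piezo1* cKO. *Cox7a1* had 6, 3 and 11 counts in wild type and 8, 10 and 8 counts in *Piezo1* cKO. *Cox8b* had 1, 0 and 5 counts in wild type and 4, 7 and 3 counts in *Piezo1* cKO. Their partners, the forms of most tissues, were abundant in every library. *Cox6a1* had 514 to 750 counts, *Cox7a2* had 379 to 553 counts and *Cox8a* had 536 to 708 counts per library. UMI counts mark transcript ends and were not divided by length.

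The share of the muscle isoform in the counts of each pair was therefore small. *Cox7a1* took 1.41% ± 0.587 in wild type and 1.99% ± 0.169 in *Piezo1* cKO (SD, n = 3 each), and *Cox8b* took 0.289% ± 0.367 and 0.770% ± 0.453. *Cox6a2* took 0.15% in wild type 2, 0.388% in *Piezo1* cKO 2 and 0% in the other libraries. The groups overlapped for each pair. In exact permutation tests, two-sided, with 3 comparisons and a smallest possible p of 0.1, p was 0.2 for *Cox7a1*, 0.3 for *Cox8b* and 1 for *Cox6a2* (adjusted 0.45, 0.45 and 1). Over pooled counts *Cox8b* had 6 of 1950 in wild type (0.308%, exact 95% interval 0.113% to 0.669%) and 14 of 1910 in *Piezo1* cKO (0.733%, 0.401% to 1.23%), counting error only.

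**Figure D4:**
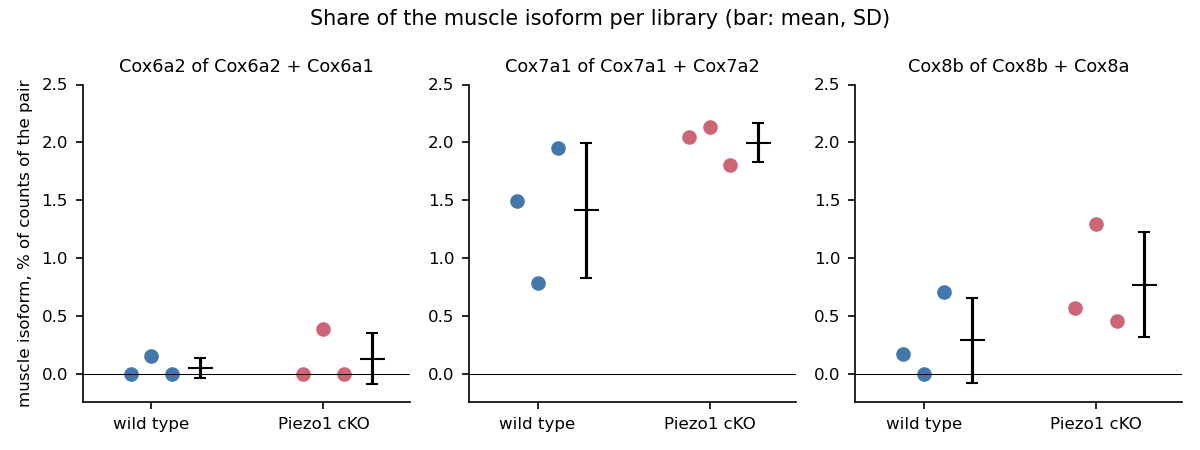
Points show, for each library, the muscle isoform as a percentage of the counts of its pair (vertical axis in %), with mean and SD of each group beside them. All values are under 2.5%, and the groups overlap in each of the 3 pairs.

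The promoter windows of *Cox8b* and *Cox8a* are shown because this pair contrasts a muscle form at 0 to 7 counts with a form at 536 to 708 counts in the same libraries. Capitals mark E boxes (CAGCTG) in *Cox8b* and ETS motifs (CCGGAAGT, here as the reverse complement ACTTCCGG) in *Cox8a*. Each window held 2 such matches and no other motif of those searched. The window of *Cox7a1* held 0 matches to any of them, and that of *Cox7a2* held 1, a GC box.
*Cox8b* (chr7:140900397-140900696, - strand): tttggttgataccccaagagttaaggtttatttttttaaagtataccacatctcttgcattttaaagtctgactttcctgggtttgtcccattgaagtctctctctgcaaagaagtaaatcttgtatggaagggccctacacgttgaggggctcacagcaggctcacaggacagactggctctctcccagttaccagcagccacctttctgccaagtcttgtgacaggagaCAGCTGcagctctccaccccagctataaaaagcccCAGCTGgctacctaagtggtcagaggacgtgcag
*Cox8a* (chr19:7217567-7217866, - strand): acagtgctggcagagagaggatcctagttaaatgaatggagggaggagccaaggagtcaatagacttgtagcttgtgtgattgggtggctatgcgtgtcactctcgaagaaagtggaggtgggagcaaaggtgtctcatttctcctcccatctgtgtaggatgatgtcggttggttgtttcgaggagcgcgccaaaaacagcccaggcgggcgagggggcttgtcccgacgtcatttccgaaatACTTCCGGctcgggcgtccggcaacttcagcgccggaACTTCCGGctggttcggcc

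The muscle isoforms are known from differentiated fibres, and genes of differentiating myocytes were counted beside them. The 15 listed markers summed to 342, 145 and 329 counts in wild type and to 548, 1523 and 746 counts in *Piezo1* cKO. The second library of each group stood apart, lowest in wild type and highest in *Piezo1* cKO. The 9 markers tested had a median log2 fold change of 2.01. In 8 of them (88.9%) the groups did not overlap, all higher, against 8.2% of all genes tested. Only *Tnni2*, a fast troponin gene, was called by edgeR (2.16 ± 0.45, SE, adjusted p = 0.00459). An unadjusted edgeR p under 0.05 was reached by 6 of the 9, and limma-voom called 8 of them, whereas cyclic loess called 1. DESeq2 called *Acta1* alone of the 7 markers to which it gave an adjusted p, and gave none to *Tnni2*. Without *Piezo1* cKO 2 the edgeR adjusted p of *Tnni2* was 0.277. The most abundant, *Acta1*, had 46, 57 and 80 counts in wild type and 133, 353 and 205 counts in *Piezo1* cKO. *Myog*, the transcription factor that marks entry into differentiation, had 40, 3 and 45 counts in wild type and 63, 203 and 92 counts in *Piezo1* cKO. Their part in the values of the OXPHOS genes was not tested.

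The labelled cell type was checked with its markers. *Myod1* had 823 to 1225 counts and *Des* 383 to 455 counts per library, whereas *Pax7*, which is lost as MuSCs differentiate, had 10, 26 and 19 counts in wild type and 16, 5 and 12 counts in *Piezo1* cKO, with overlap. The 10 listed genes of muscle stem cells and myoblasts summed to 3369, 3679 and 3840 counts in wild type and to 3654, 2683 and 3156 counts in *Piezo1* cKO, with *Chrna1* the most abundant. EdgeR called 0 of the 9 tested, and the median log2 fold change was -0.155, or 0.090 after cyclic loess. The estimates ran from -0.64 ± 0.36 for *Pax7* to 0.53 ± 0.16 for *Cdh15* (SE). The groups did not overlap in 3 of the 9 tested (33.3%), against 16.5% of all genes tested. These 3 were *Cdh15* above wild type and *Vcam1* and *Sdc4* below it. The same 3 had an unadjusted edgeR p under 0.05 (adjusted p = 0.118, 0.185 and 0.0609). With 1 library left out in turn, the edgeR adjusted p ran from 0.0101 to 0.428 for *Cdh15*, from 0.0777 to 0.658 for *Vcam1* and from 0.00255 to 0.436 for *Sdc4*. The part of these genes in the values of the OXPHOS genes was not tested. Markers of other cells were scarce. The 4 endothelial genes summed to 1 to 14 counts, the 2 blood genes to 7 to 14 counts and the 4 Schwann cell genes to 2 to 6 counts per library. The 6 fibroblast genes summed to 29, 36 and 65 counts in wild type and to 23, 17 and 18 counts in *Piezo1* cKO, without overlap on the CPM scale. The most abundant, *Dcn*, had 18, 23 and 37 against 8, 5 and 3 counts, and edgeR called it lower (-2.17 ± 0.38, SE, adjusted p = 0.000387), as did limma-voom and cyclic loess, whereas DESeq2 gave it no adjusted p. *Pi16* was at 0 in every library. The 5 smooth muscle and pericyte genes summed to 167, 94 and 404 and to 317, 422 and 314 counts, mostly from *Acta2*, which myoblasts also express, while *Myh11* was at 0 in 5 of the 6 libraries.

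Of the other isoform genes of complex IV, *Cox6b2*, known from testis, was also under the filter. It had 5, 6 and 9 counts in wild type and 9, 16 and 17 counts in *Piezo1* cKO. The groups did not overlap on the CPM scale (8.17 ± 2.14 against 18.4 ± 6.06 CPM, SD, n = 3 each; exact permutation test, two-sided, p = 0.1, the smallest possible). Over pooled counts, 20 against 42, the ratio of rates was 2.33 (95% interval 1.34 to 4.20, counting error only). In edgeR without the filter its adjusted p was 0.3. *Ndufa11b*, a processed pseudogene, had 0 or 1 count in each library and was the remaining member not tested. *Cox4i2*, *Cox7b2*, *Cox8c* and *Ndufa4l2* are not listed in the table used here and were not analysed here.

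Complex V, the ATP synthase, had 17 members with a median of -0.050. The subunits of the catalytic head and central stalk had a median of -0.169 over 5 genes, with 4 below 0. *Atp5b*, which encodes the catalytic beta subunit, had 1393, 1543 and 1520 counts in wild type and 1386, 995 and 1244 counts in *Piezo1* cKO. The groups overlapped (1840 ± 146 against 1573 ± 231 CPM, SD, n = 3 each), and the estimate was -0.23 ± 0.15 (SE, edgeR adjusted p = 0.589). The 4 peripheral stalk genes were all below 0 by estimate (median -0.107), and none had an unadjusted p under 0.05. After cyclic loess normalisation the estimates were above 0 for all 5 genes of the head and stalk and for 3 of the 4 genes of the peripheral stalk.

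The 3 genes for the c ring, the rotor that protons turn, encode the same mature protein. *Atp5g1* stood at 896 ± 61.7 and 824 ± 90.1 CPM, *Atp5g2* at 50.5 ± 6.76 and 55.7 ± 7.22 CPM, and *Atp5g3* at 610 ± 82.8 and 632 ± 48.3 CPM (SD, n = 3 each). The groups overlapped for each of them. The 5 small membrane subunits had a median of 0.177, with 4 above 0. *Atp5mpl* had 201, 192 and 264 counts in wild type and 227, 268 and 276 counts in *Piezo1* cKO, with an estimate of 0.31 ± 0.14 (SE, edgeR adjusted p = 0.354), or 0.16 without wild type 2. *Atp5l*, whose symbol is shared in part by pseudogene rows that the rule dropped, had 16, 12 and 14 counts in wild type and 18, 13 and 27 counts in *Piezo1* cKO. Its estimate of 0.54 ± 0.33 (SE, edgeR adjusted p = 0.537) was the highest of the complex, and was 0.20 without *Piezo1* cKO 3 and 0.36 after cyclic loess.

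The estimates within the members followed the level of the gene. Across the 82 members the edgeR log2 fold change and the mean level had r = -0.617 and rho = -0.539, and across all 8551 genes tested r = -0.213, where the points share the same 6 libraries. A level of 250 CPM, chosen after the data were seen, separates the abundant members. The 57 members at or above it had a median of -0.008, and the 888 genes of all kinds above it had a median of -0.148, with 710 below 0. The 25 tested members under it had a median of 0.122. Cyclic loess normalisation, which removes trends with level between libraries, took the relation within the members to r = -0.132. It moved the median of the abundant members to 0.128 and that of all abundant genes to -0.005.

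The median over the members was above 0 under each normalisation with all 6 libraries, but its size changed with the normalisation and its sign with the libraries used. After cyclic loess, 71 of the 82 members were above 0 with a median of 0.13, while the median of all genes was -0.003. With total counts alone 60 of the 82 were above 0 with a median of 0.10, but the median of all genes was then 0.078. In edgeR without wild type 2, 27 of the 83 members then tested were above 0 and the median was -0.067. Without *Piezo1* cKO 3, 34 of 82 were above 0 and the median was -0.014. After cyclic loess without wild type 2, 60 of 83 were above 0 and the median was 0.052. No member was called in any of these fits. Over the edgeR fit with all libraries and up to 14 alternatives, the sign of the log2 fold change was kept by 29 of the 82 members. *Ndufs6b* and *Ndufb4c* had no estimate under the filter of at least 10 counts in every library.

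**Figure D5:**
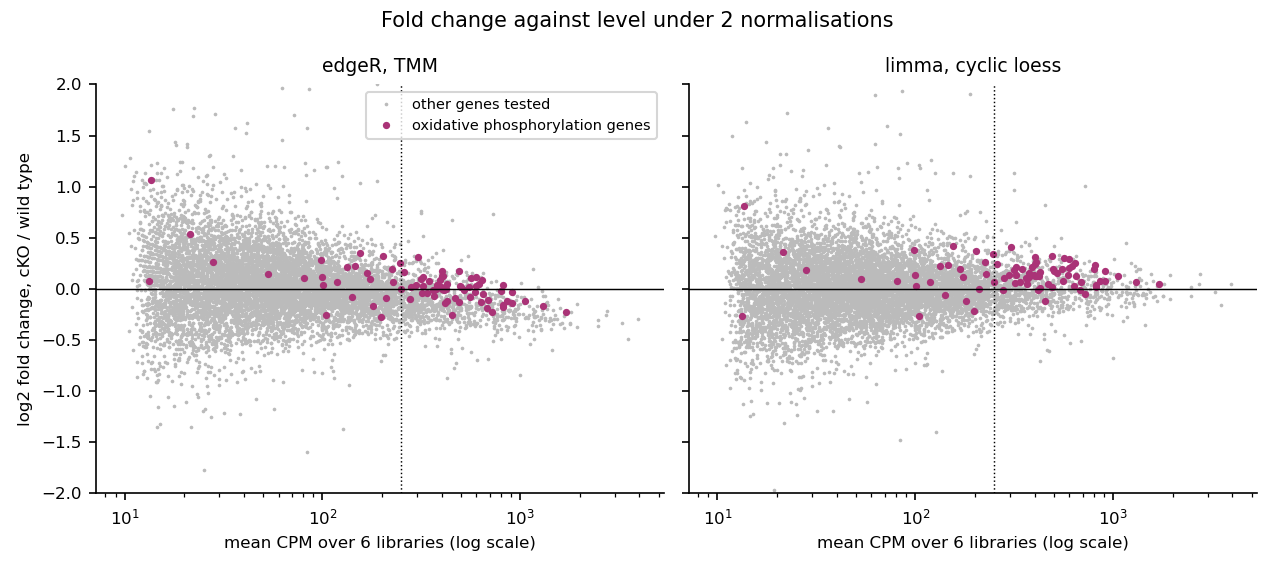
Each point is a gene tested, with its mean CPM over the 6 libraries on a log axis and its log2 fold change (*Piezo1* cKO over wild type) from edgeR with TMM (left) or limma after cyclic loess (right). OXPHOS genes are coloured, and the dotted line marks 250 CPM. Abundant members lie around 0 on the left (median -0.008) and above it on the right (median 0.128), and 11 genes on the left and 7 on the right, none of them a member, lie outside the axis range.

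Genes that the rule did not cover but that serve the same pathway were read from fixed lists, and edgeR called 0 genes in each of 8 lists. The 16 complex I assembly factors tested had a median of 0.010, and the smallest p was that of *Ndufaf5* (0.45 ± 0.25, SE). The 4 of complex II had a median of 0.065. *Sdhaf4*, a factor for the maturation of *Sdha*, had 38, 60 and 58 counts in wild type and 48, 87 and 70 counts in *Piezo1* cKO (0.48 ± 0.20, SE, edgeR adjusted p = 0.266). The 5 of complex III had a median of -0.128, with *Uqcc3* at -0.31 ± 0.19 (SE). The 18 of complex IV had a median of 0.069, with *Cox14* at 0.25 ± 0.16 (SE). The 4 of complex V had a median of -0.075, with *Fmc1* at 0.49 ± 0.21 (SE, edgeR adjusted p = 0.330).

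The 16 regulators and factors of mitochondrial DNA expression tested had a median of -0.061. *Ppargc1a*, the coactivator best known for mitochondrial biogenesis, had 12, 7 and 8 counts in wild type and 12, 7 and 6 counts in *Piezo1* cKO and was under the filter. *Nrf1* had 40, 80 and 51 counts in wild type and 60, 42 and 52 counts in *Piezo1* cKO, and *Tfam*, which packages mitochondrial DNA, had 51, 64 and 54 against 56, 49 and 39 counts. *Twnk*, the mitochondrial helicase, had the smallest p of this list (0.42 ± 0.25, SE, edgeR adjusted p = 0.508), with groups that did not overlap. The 16 genes of the citric acid cycle had a median of -0.007 and overlapped between the groups in every case. *Cs*, citrate synthase, a common measure of mitochondrial content, had 299, 374 and 354 counts in wild type and 372, 286 and 307 counts in *Piezo1* cKO (-0.01 ± 0.13, SE). The smallest p of this list was that of *Ogdh* (0.20 ± 0.14, SE).

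Among 11 tested genes of other electron and proton carriers of the inner membrane, 10 were below 0 in edgeR and the median was -0.132. After cyclic loess 5 of the 11 were above 0 and the median was -0.047. The edgeR estimates ran from -0.76 for *Prodh* to 0.28 for *Etfdh*. The groups did not overlap in 18.2% of the 11 genes (1 higher, 1 lower), against 16.5% of all genes tested. *Gpd2*, the mitochondrial glycerol-3-phosphate dehydrogenase that feeds electrons to ubiquinone, had 122, 163 and 146 counts in wild type and 114, 81 and 106 counts in *Piezo1* cKO. Its groups did not overlap on the CPM scale, and the estimate was -0.43 ± 0.15 (SE, unadjusted p = 0.00503, edgeR adjusted p = 0.168). *Slc25a4* and *Slc25a5*, the ADP/ATP carriers, had estimates of -0.10 ± 0.14 and -0.17 ± 0.15 (SE). *Ndufab1*, the acyl carrier protein of complex I that the name rule misses, stood at 370 ± 46.1 and 349 ± 6.16 CPM, and *Atpif1*, the inhibitor of the ATP synthase, at 424 ± 60.0 and 448 ± 50.1 CPM (SD, n = 3 each). *Nnt*, the inner membrane transhydrogenase, had 0 to 3 counts in every library.

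The 11 rows dropped as pseudogenes held at most 37 counts per library apart from *Cox5b-ps*, with 94 to 115 counts per library beside 358 to 464 for *Cox5b*. How reads shared between such copies and the members were counted is not known, since the settings for them were not given in the sources used here.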

How the data were processed

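RNA-seq of 3 wild type and 3 *Piezo1* cKO libraries of MuSCs cultured for 3 d was used. According to the study's methods and the submitters' processing notes, the authors made cDNA from 500 pg of total RNA with oligo-dT primers bearing a barcode and a UMI, ran 12 PCR cycles, mapped reads of 150 bases to GRCm38 with STAR 2.7.9a, assigned them with featureCounts 2.0.1 and counted UMIs with UMI-tools 1.1.1. The authors deposited raw UMI counts per gene. Their settings for strand and for multi-mapping reads were not given in the sources used here. Oligo-dT priming followed by fragmentation places counts near transcript ends.

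The libraries held 740936, 931168 and 891531 counts in wild type and 810096, 726378 and 769295 in *Piezo1* cKO. Intervals of pooled counts and floors cover counting error only, whereas the intervals of fold changes come from the edgeR fit and include the spread between libraries. Chi-square per degree of freedom between libraries of a group was 1.64 to 2.61, so none was taken as a repeat of another. The labels do not say whether the libraries of a group come from separate mice, so that p-values measure the spread between these libraries.

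Counts were tested in R 4.3.3 with edgeR 4.0.16 (minimum count 10, TMM, robust quasi-likelihood fit, Benjamini-Hochberg adjustment over 8551 genes, called at an adjusted p under 0.05). CPM were scaled by the TMM library sizes. SE was derived from the quasi-likelihood F. Deviations by library used log2(CPM + 1). Single values were tested with exact permutation tests in scipy 1.17.1, and lists were described by counts and medians without a test. The alternatives were DESeq2 1.42.0, limma-voom (limma 3.58.1), DESeq2 size factors or total counts in edgeR, cyclic loess (3 iterations, log2 CPM with a prior count of 2), no filter, at least 10 counts in every library, the replicate number as a block and each library left out in turn. Cyclic loess with each library left out was an addition made after seeing the data. The fit was tested on simulated counts.

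The members and the lists were chosen with earlier results of these data known. The named genes were to be those called by edgeR or DESeq2, the isoform genes of complexes IV and V, *Sdha* to *Sdhd*, *Cycs*, *Cyc1*, the highest and lowest estimate of each complex, every member with an unadjusted edgeR p under 0.05, and the smallest p of each pathway list. Others, such as *Ndufb2* and *Ndufa12*, were chosen after their values were seen. Gene positions come from GENCODE M21 (GRCm38), which held 83 of the 87 symbols, and promoter sequences from RefSeq (GRCm38.p6).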

Additional observations from a re-analysis of the deposited data

How the results depend on the processing

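The number of members called stayed at 0 under all alternatives apart from those that left out wild type 3, in edgeR and after cyclic loess, which called 2 members, so that the counts with 1 library left out ran from 0 to 2. The number of genes called was 67 with edgeR, 27 with DESeq2, 32 after cyclic loess and 129 with no filter, and from 6 to 174 with 1 library left out. The median log2 fold change of the members was 0.021, and from -0.067 to 0.191 with 1 library left out, in edgeR or after cyclic loess. After cyclic loess it was 0.160 without wild type 1, 0.169 without wild type 3 and 0.191 without *Piezo1* cKO 1. Without wild type 3, edgeR called *Ndufb2* and *Ndufa6* higher, and without wild type 2 their estimates were 0.01 and 0.17. The difference in the share of *Cox6a2*, which rests on 3 counts in all, ran from -0.050 to 0.144 percentage points with 1 library left out and reversed without *Piezo1* cKO 2, which holds 2 of them. The differences of *Cox7a1* and *Cox8b*, 0.584 and 0.481 percentage points, kept their direction and ran from 0.271 (without wild type 2) to 0.854 (without wild type 3) and from 0.221 (without *Piezo1* cKO 2) to 0.687 (without wild type 3).

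Same-numbered libraries of the groups did not deviate together (correlations of -0.143, -0.203 and 0.012). The labels do not say whether they were paired, and these correlations cannot decide it. The replicate numbers are used here as names of the libraries. With the replicate number as a block, edgeR called 46 genes and 0 members, and the median of the members was 0.026. The fit without mitochondrially encoded genes in the totals, the median of these genes and their share of counts were not run, since 0 such genes are listed in the table used here. Depth limited the values of *Cox6a2* and *Cox8b*, with 0 to 7 counts per library.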
